A study of Mus musculus with 6 samples.

Results

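The apolipoprotein genes of mouse liver described here are Apoa1, Apoa2, Apoa4, Apoa5, Apob, Apoc1, Apoc3, Apoe, Apom and Apoh. They were taken by name from the Ensembl gene lines of 6 liver RNA-sequencing libraries, and all 10 were found among 55471 gene lines and passed the filter on low counts. The livers came from male wild-type C57BL/6J mice, an inbred laboratory strain, of which 3 had fasted for 4 h and 3 for 16 h, with 1 library per mouse. All livers share the wild-type genotype and sex, the ages are not given, and the baseline is a short fast and not a fed state. The series concerns cholesterol transport in the liver without vesicles, and this comparison asks how the length of a fast changed the liver transcripts of the proteins that carry cholesterol and triglyceride in blood.

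Apolipoproteins are the protein part of lipoprotein particles. Apolipoprotein B is the large, non-exchangeable scaffold of very low density lipoprotein (VLDL), which exports triglyceride from hepatocytes, whereas apolipoproteins A-I and A-II build high density lipoprotein (HDL). The small exchangeable proteins A-IV, A-V, C-I, C-III and E move between particles and steer lipase action and receptor uptake. Hepatocytes make most of them, macrophages also make apolipoprotein E, and enterocytes also make A-I, A-IV and B.

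Library depth was between 15173653 and 26572532 gene counts. The hepatocyte marker list fitted the liver label, with all 10 markers tested and a summed level of 95378 to 109849 CPM (counts relative to the TMM-scaled library size, the unit of all levels here). Replicate 3 of the 4 h fast stood apart from its mates, at -33.5 on the second principal component against 14.0 and 26.5. It carried lung markers at a summed 191 CPM, against at most 8.86 CPM in any 16 h library, with Scgb1a1, a secretory protein of the airway, at the top. Its transcript ratios also moved with length. Relative to the mean of the other 4 h libraries, the median log2 ratio was 0.49 for 160 genes of up to 1000 exon bases and -0.21 for 1531 genes of over 8000 bases, counting genes whose mean level reached 10 CPM. Apolipoprotein transcripts lie at both ends of that range, from 537 bases for Apoa2 to 13934 bases for Apob, so the change of each of the 10 genes is given with and without that library. The part of length, lung RNA or RNA quality in the differences was not tested.

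After the longer fast 3 apolipoprotein transcripts rose, Apob, Apoa5 and Apoa4, and none of the 10 fell in edgeR's test, where 2 lower members (Apoc1 and Apoc3) had an unadjusted p under 0.05 and DESeq2 called 1. Among all 13812 genes tested with edgeR's quasi-likelihood test, 9.18% were called higher and 9.51% lower. The median log2 fold change of the apolipoprotein genes was -0.07, against -0.03 over all genes tested, and it was 0.11 without 4 h replicate 3. Apob and Apoa5 were also called without that library, while Apoa4 was not. The values of the 2 groups did not overlap for 5 members, higher for Apoa4, Apoa5 and Apob and lower for Apoc1 and Apoc3, and over all tested genes 19.7% were separated in each direction. Without 16 h replicate 1 or 2 only 1 member was called higher, and without 4 h replicate 2 it was again Apoa5 and Apob that were called higher, with 3 members (Apoa2, Apoc1 and Apoc3) called lower. The background for such counts also moved. Leaving out 4 h replicate 1, 2 or 3, the share of all genes called higher was 7.4%, 8.19% and 11.1% and the share called lower 7.42%, 7.81% and 9.73%. Leaving out 16 h replicate 1, 2 or 3, it was 5.82%, 4.74% and 4.77% for higher and 5.85%, 4.98% and 4.94% for lower. It was 10% and 9.08% with DESeq2, and 5.81% and 5.8% with no count filter.

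**Figure D1:**
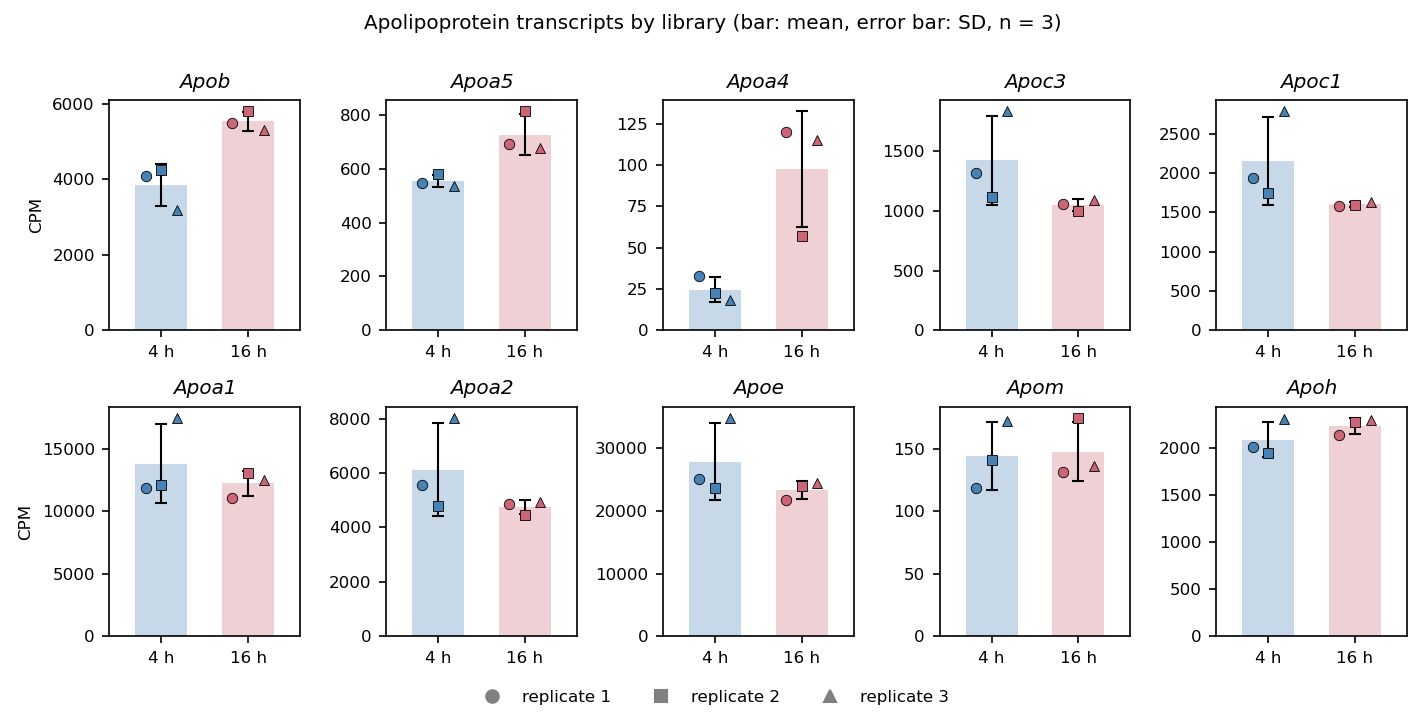
Level of each apolipoprotein transcript in CPM (vertical axis) after a 4 h and a 16 h fast, with bars for the mean, error bars for the SD (n = 3) and a symbol per replicate. Replicate 3 of the 4 h fast (triangle) is the highest of the 6 libraries for 6 of the genes and the lowest for 3.

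Apob, on chromosome 12 at 7977648 to 8016835 of GRCm38, encodes the VLDL scaffold. It stood at 4087, 4241 and 3196 CPM after 4 h and at 5498, 5799 and 5300 CPM after 16 h, for replicates 1 to 3. Every 16 h liver lay above every 4 h liver, and the lowest value was that of 4 h replicate 3. The mean went from 3841 ± 564 to 5532 ± 251 CPM (SD, n = 3), a 1.44-fold rise with a log2 fold change of 0.53 ± 0.13 (SE, edgeR FDR-adjusted p = 0.0167). Without 4 h replicate 3 the change was 0.42 (adjusted p = 0.011), against a median log2 ratio of 0.11 for genes of over 8000 exon bases between the 16 h libraries and the other 4 h libraries. Its call was lost without 16 h replicate 1 or 2 (edgeR FDR-adjusted p = 0.0509 and 0.0766).

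Apoa5, on chromosome 9 at 46268633 to 46271919, encodes a scarce plasma protein that promotes triglyceride breakdown by lipoprotein lipase. It was at 547, 580 and 537 CPM after 4 h and at 692, 815 and 679 CPM after 16 h. The groups were apart, and the 4 h livers lay within a narrow range that held replicate 3 as well. The mean rose 1.31-fold, from 555 ± 22.2 to 728 ± 75.0 CPM, with a log2 fold change of 0.39 ± 0.11 (edgeR FDR-adjusted p = 0.0332), and 0.38 without 4 h replicate 3 (0.0218). This call was lost without 4 h replicate 1 (edgeR FDR-adjusted p = 0.0719), and also when 16 h replicate 1, 2 or 3 was left out (0.0651, 0.155 and 0.0654).

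Apoa4, on chromosome 9 at 46240696 to 46243459, encodes an exchangeable protein of chylomicrons and HDL and had the largest change of the 10. Its counts were 895, 345 and 346 after 4 h and 2702, 946 and 2793 after 16 h. In CPM these were 32.9, 22.2 and 18.1 against 120, 57.0 and 115. All 16 h livers exceeded all 4 h livers, but 16 h replicate 2 lay nearer to 4 h replicate 1 than to its own mates. The mean went from 24.4 ± 7.7 to 97.4 ± 35.1 CPM, 3.99-fold, with a log2 fold change of 1.99 ± 0.35 and a 95% interval from 1.14 to 2.84 (edgeR FDR-adjusted p = 0.0124). The change stayed between 1.82 and 2.30 over the alternatives run, with adjusted p between 2.61e-05 with DESeq2 and 0.0961 without 4 h replicate 3, and it also missed the threshold without 4 h replicate 2 (edgeR FDR-adjusted p = 0.0874) and with no count filter (0.0793).

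Overlapping annotation limits the level of Apoa4 and Apoa5. Antisense genes cover 69.8% of the exon bases of Apoa4 and 20.8% of those of Apoa5. Of these, Gm10680 and Gm47544 had 0 counts in all 6 libraries and Gm47528 had 56 in all. Where counting ignores strand, a read over 2 genes goes to neither, and the strand setting is not given in the sources used here, so the level of Apoa4 may be too low. The other 8 members have at most 1.88% of their exon bases in overlap.

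The 250 bases before the RefSeq start sites are shown for the 3 genes that rose and for the neighbour Apoa1, which did not pass. The searched motifs include that of the product of Hnf4a, a main activator of apolipoprotein genes (values with the regulators). Whether any motif took part in a change was not tested. They are read 5′ to 3′ on the plus strand of GRCm38.p6, with matches to the searched motifs in capitals. Apoa4 spans chr9:46240594-46240843, Apoa5 chr9:46268383-46268632, Apob chr12:7977427-7977676 and Apoa1 chr9:46228380-46228629.
Apoa4: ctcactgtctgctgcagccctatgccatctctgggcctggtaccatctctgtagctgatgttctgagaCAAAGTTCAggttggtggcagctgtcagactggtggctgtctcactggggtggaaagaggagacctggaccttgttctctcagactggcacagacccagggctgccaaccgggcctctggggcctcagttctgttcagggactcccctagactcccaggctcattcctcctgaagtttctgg
Apoa5: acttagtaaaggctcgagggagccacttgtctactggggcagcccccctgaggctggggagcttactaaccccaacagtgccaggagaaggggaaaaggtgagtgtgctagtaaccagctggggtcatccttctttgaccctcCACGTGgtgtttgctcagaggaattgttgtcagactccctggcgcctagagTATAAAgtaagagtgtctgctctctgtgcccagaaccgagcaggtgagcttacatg
Apob: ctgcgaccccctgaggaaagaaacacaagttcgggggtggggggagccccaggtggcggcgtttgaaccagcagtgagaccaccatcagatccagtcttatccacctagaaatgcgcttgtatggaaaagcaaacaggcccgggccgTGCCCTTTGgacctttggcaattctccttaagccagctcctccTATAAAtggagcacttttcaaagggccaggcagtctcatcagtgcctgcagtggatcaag
Apoa1: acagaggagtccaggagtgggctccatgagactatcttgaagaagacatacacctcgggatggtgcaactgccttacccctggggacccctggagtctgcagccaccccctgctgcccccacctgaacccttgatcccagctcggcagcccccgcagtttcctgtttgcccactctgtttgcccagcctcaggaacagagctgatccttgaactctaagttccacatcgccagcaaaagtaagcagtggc

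The motifs were searched on both strands in the RefSeq windows of 8 of the 10 genes, since Apoc1 and Apoc3 had no entry. They were the HNF4 core CAAAGNNCA, the TATA box TATAAA, the CCAAT box CCAAT, the nuclear receptor motif AGGTCA, the FOXO motif TGTTTAC and the E-box CACGTG. Of these, AGGTCA can share bases with the HNF4 core. An HNF4 core stood at -182 to -174 of Apoa4, as CAAAGTTCA, and on the other strand at -103 to -95 of Apob, and 5.49% of 32851 windows of this length hold one. Apoa5 had an E-box at -107 to -102 (6.02% of windows) and a TATA box at -56 to -51 (12.4%), and Apob had a TATA box at -60 to -55. Counted from another RefSeq start site of Apoa5, at 46268608, the same E-box lies at -82 to -77 and the same TATA box at -31 to -26. The window of Apoa1 held no exact match to the 6 motifs, and looser matches were not searched in any window. Among the windows not shown, Apoh had an HNF4 core at -93 to -85, a FOXO motif at -71 to -65 and an AGGTCA match at -215 to -210 (14.0% of windows). Apoa2 had a FOXO motif at -77 to -71 (3.17%), a TATA box at -212 to -207 and a CCAAT box at -164 to -160 (33.8%). Before another start site, 171221564, Apoa2 had a CCAAT box at -128 to -124 and an AGGTCA match at -238 to -233. Before its start site 19698621, Apoe had TATA boxes at -100 to -95 and -96 to -91.

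Apoc3 and Apoc1 were lower after 16 h without passing the test. Apoc3, on chromosome 9 at 46232933 to 46235636, encodes an inhibitor of triglyceride clearance. It was at 1319, 1118 and 1837 CPM after 4 h and at 1056, 998 and 1095 CPM after 16 h. The groups were apart, and 4 h replicate 3 was far above the rest. Its log2 fold change was -0.44 ± 0.16 (edgeR FDR-adjusted p = 0.0828), and -0.20 without 4 h replicate 3 (0.183). It passed with DESeq2 (adjusted p = 0.0496), with no count filter (edgeR FDR-adjusted p = 0.0146) and without 4 h replicate 2 (0.0221), settings in which 9.08%, 5.8% and 7.81% of all tested genes were called lower.

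Apoc1, on chromosome 7 at 19689481 to 19692660, encodes a small protein that hinders lipoprotein uptake. It had 1937, 1740 and 2786 CPM after 4 h and 1577, 1588 and 1636 CPM after 16 h. All 3 of the 16 h livers lay below the 4 h livers and within a narrow range. The log2 fold change was -0.43 ± 0.16 (edgeR FDR-adjusted p = 0.0857), and -0.19 without 4 h replicate 3 (0.187). It passed with no count filter (edgeR FDR-adjusted p = 0.0193) and without 4 h replicate 2 (0.0309).

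The HDL proteins and apolipoprotein E did not pass. Apoa1, on chromosome 9 at 46228580 to 46230466, was at 11883, 12065 and 17489 CPM after 4 h and at 11093, 13055 and 12527 CPM after 16 h. The groups overlapped, and only 4 h replicate 3 lay outside the range of the other 5 livers by a wide margin. The change was -0.18 ± 0.16 (edgeR FDR-adjusted p = 0.466), with a 95% interval from -0.52 to 0.17, and 0.04 without that library.

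Apoa2, the smaller HDL protein, on chromosome 1 at 171225054 to 171226379, was at 5567, 4782 and 8035 CPM after 4 h and at 4861, 4477 and 4926 CPM after 16 h. The groups overlapped through 4 h replicate 2. The change was -0.37 ± 0.17 (edgeR FDR-adjusted p = 0.159), and -0.11 without 4 h replicate 3. Without 4 h replicate 2, its lowest 4 h value, it was called lower (-0.49, edgeR FDR-adjusted p = 0.0492).

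Apoe, on chromosome 7 at 19696109 to 19699188, encodes the ligand through which remnant particles bind their receptors. It was at 25019, 23616 and 34816 CPM after 4 h and at 21722, 23922 and 24339 CPM after 16 h. Only 4 h replicate 3 stood clear of the rest. The change was -0.25 ± 0.15 (edgeR FDR-adjusted p = 0.269), with a 95% interval from -0.59 to 0.08, and -0.05 without that library, with an interval from -0.28 to 0.19. Macrophages can also supply this transcript, and the 11 Kupffer cell and macrophage markers summed to 146 to 262 CPM after 4 h, highest in replicate 3, and to 136 to 165 CPM after 16 h. The most abundant of them, Clec4f of Kupffer cells, was at 61.5 ± 19.0 and 40.6 ± 4.8 CPM (edgeR FDR-adjusted p = 0.0635). Of these markers edgeR called 1 lower (Timd4, named after its values were seen) and DESeq2 called 3, with 4 lower at an unadjusted edgeR p under 0.05, and their part in the level of Apoe was not tested. In whole liver, fewer cells of a type and less RNA per cell cannot be told apart.

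Apom and Apoh were slightly higher after 16 h without passing the test. Apom, a carrier of sphingosine 1-phosphate on HDL, on chromosome 17 at 35128997 to 35132050, was at 119, 141 and 173 CPM after 4 h and at 132, 175 and 137 CPM after 16 h. The groups overlapped, and the change was 0.04 ± 0.15 (edgeR FDR-adjusted p = 0.898). Apoh, or beta-2-glycoprotein I, which binds anionic phospholipid, on chromosome 11 at 108343354 to 108414396, was at 2015, 1948 and 2307 CPM against 2141, 2276 and 2297 CPM. Its change was 0.10 ± 0.11 (edgeR FDR-adjusted p = 0.577). The 95% intervals ran from -0.30 to 0.37 for Apom and from -0.15 to 0.35 for Apoh. Without 4 h replicate 3 the changes were 0.20 for Apom (edgeR FDR-adjusted p = 0.329) and 0.19 for Apoh (0.188).

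**Figure D2:**
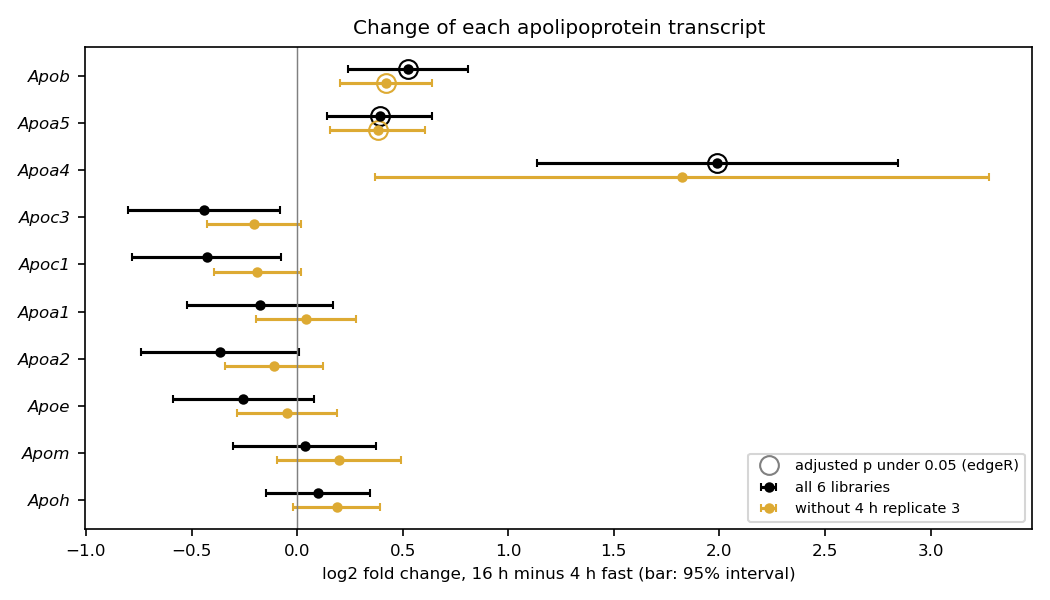
Log2 fold change of each apolipoprotein gene, 16 h minus 4 h (horizontal axis), with its 95% interval, from all 6 libraries (black) and without 4 h replicate 3 (yellow), and rings where the edgeR adjusted p was under 0.05. Apob and Apoa5 carry rings in both fits, Apoa4 only in the fit of all libraries, and Apoa1 moves from -0.18 to 0.04.

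Each of the 5 members with a negative change was highest in the same library. Replicate 3 of the 4 h fast exceeded the mean of its mates 1.46-fold for Apoa1, 1.55-fold for Apoa2, 1.52-fold for Apoc1, 1.51-fold for Apoc3 and 1.43-fold for Apoe. In the same library Apob was at 0.768 and Apoa4 at 0.655 of its mates. Against those 2 mates alone, the 16 h mean was 1.02-fold for Apoa1, 0.919-fold for Apoa2, 0.871-fold for Apoc1, 0.861-fold for Apoc3 and 0.959-fold for Apoe, and it was 1.33-fold for Apob and 1.29-fold for Apoa5. On the log2 scale Apoe, with 2138 exon bases, lay 0.52 above its mates in that library, against a median of 0.11 for genes of its length bin, and Apoa4 lay 0.61 below them (log2 ratio -0.61), against 0.35 for its bin.

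**Figure D3:**
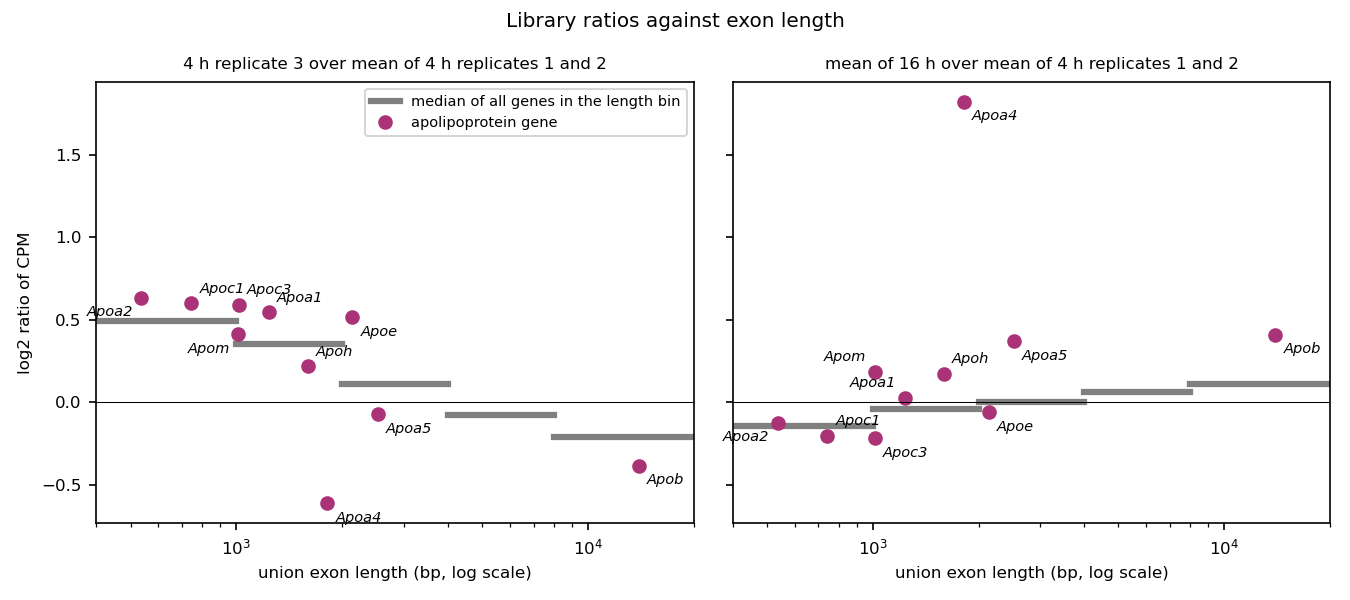
Log2 ratio of CPM (vertical axis) against union exon length in bases (horizontal axis, log scale) for 4 h replicate 3 over the mean of 4 h replicates 1 and 2 (left) and for the 16 h mean over the same (right), with points for apolipoprotein genes and grey bars for the median of all genes in a length bin. In the left panel 7 genes lie above 0, while Apoa5 at -0.07 and Apoa4 at -0.61 lie below 0 in bins whose medians are above it, and Apob lies at -0.38 in a bin whose median is below it.

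Per exon length, Apoe, Apoa2 and Apoa1 were the most abundant members. After 4 h they stood at 13011 ± 2854, 11411 ± 3161 and 11175 ± 2577 CPM per kilobase of union exon (SD, n = 3). Their ranges over the livers overlapped, but Apoe was the highest member within every library of both groups. Apoa1 and Apoa2 changed order between libraries. After 16 h the order was Apoe with 10911 ± 658, Apoa1 with 9891 ± 822 and Apoa2 with 8855 ± 452 CPM per kilobase, and the ranges of neighbours overlapped. Apoc1 followed with 2896 ± 747 and 2151 ± 42.0 CPM per kilobase after 4 h and 16 h. Apoc3 (1405 ± 366) and Apoh (1311 ± 120) did not differ beyond their spread after 4 h, and after 16 h Apoh was above Apoc3, with 1404 ± 53.0 against 1035 ± 48.2 CPM per kilobase. Lower down came Apob (276 ± 40.5 and 397 ± 18), Apoa5 (220 ± 8.8 and 289 ± 29.7), Apom (142 ± 26.8 and 146 ± 23.5) and, last in both groups, Apoa4 (13.4 ± 4.2 and 53.7 ± 19.3 CPM per kilobase). The places of Apoa4 and Apoa5 are uncertain. Antisense genes overlap 69.8% and 20.8% of the exon bases used as their length, and reads there may be uncounted. With the length of the principal transcript in place of the union of exons, Apoa1 came before Apoa2 and Apoc3 before Apoh in both groups.

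Together the 10 transcripts held 5.37%, 5.14% and 6.92% of gene counts after 4 h and 5.04%, 5.19% and 5.15% after 16 h. The 16 h libraries agreed closely, and of the 4 h libraries replicate 3 alone exceeded them by more than 1 percentage point. Within the sum Apoe took 44.4% to 48.9% and Apoa1 22.6% to 24.6%. The share of Apob was 7.78%, 8.44% and 4.49% after 4 h and 11.2%, 10.9% and 9.99% after 16 h. There were 2.91, 2.85 and 5.47 Apoa1 counts per Apob count after 4 h and 2.02, 2.25 and 2.36 after 16 h, so that every 16 h liver had fewer HDL scaffold counts per VLDL scaffold count than every 4 h liver. There were 0.0774, 0.0737 and 0.0800 Apoc1 counts per count of its neighbour Apoe after 4 h and 0.0726, 0.0664 and 0.0672 after 16 h, so that this ratio too was lower in every 16 h liver. Counts of Apoa1 per count of Apoa4, given with their cluster below, were also lower in every 16 h liver. The ratios of Apoa1 to Apoe and to Apoc3 overlapped between the groups. Apoa1 counts per Apoe count were 0.475, 0.511 and 0.502 after 4 h and 0.511, 0.546 and 0.515 after 16 h. Per Apoc3 count they were 9.01, 10.8 and 9.52 against 10.5, 13.1 and 11.4. How often ratios of other gene pairs separate the groups was not tested.

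Apoa1, Apoc3, Apoa4 and Apoa5 lie within 43.3 kb on chromosome 9, yet did not move as a block. In order along the chromosome their log2 fold changes were -0.18, -0.44, 1.99 and 0.39, of which those of Apoa4 and Apoa5 passed. Counts of Apoa1 per count of Apoa4 were 361, 543 and 968 after 4 h and 92.3, 229 and 109 after 16 h. Of the genes beside the cluster, the zinc finger gene Zpr1 fell, by 0.52 ± 0.14 on the log2 scale (edgeR FDR-adjusted p = 0.0284), a call lost without 4 h replicate 3 or 16 h replicate 2 or 3 (0.0504, 0.0926 and 0.135). The kinase gene Sik3 (0.24 ± 0.11, edgeR FDR-adjusted p = 0.146), Pafah1b2 (0.23 ± 0.10, 0.149) and Bud13 (-0.35 ± 0.20, 0.24) did not pass.

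**Figure D4:**
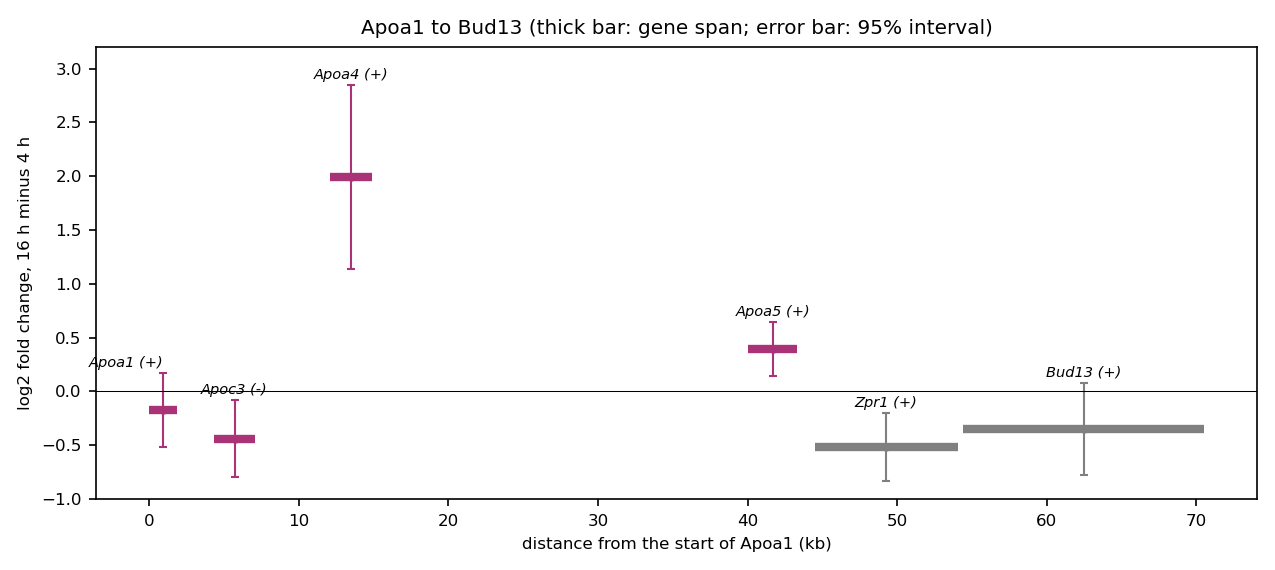
Log2 fold change, 16 h minus 4 h (vertical axis), of the 4 clustered apolipoprotein genes (purple) and the genes Zpr1 and Bud13 beside them (grey), against distance from the start of Apoa1 in kb, with thick bars for gene spans, strands in brackets and 95% intervals. Apoa4 at 1.99 stands above its neighbours Apoc3 at -0.44 and Apoa5 at 0.39.

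Apoe and Apoc1 share a cluster on chromosome 7 with Apoc4 and Apoc2. Apoc2, the activator of lipoprotein lipase, rose from 4.53 ± 0.49 to 7.23 ± 0.91 CPM (0.68 ± 0.17, edgeR FDR-adjusted p = 0.0193). Its level is uncertain, since 79.5% of its exon bases overlap the read-through gene Gm44805, which had 0 counts in all libraries, and its call was lost without 4 h replicate 1 or 16 h replicate 1 or 3 (edgeR FDR-adjusted p = 0.0675, 0.0574 and 0.0956). Apoc4 did not pass, at 144 ± 38.8 and 163 ± 10.5 CPM (0.18 ± 0.17, edgeR FDR-adjusted p = 0.47), but it was called higher without 4 h replicate 3 (0.44, 0.00587). The neighbours Nectin2, Tomm40 and Clptm1 did not pass (0.13 ± 0.14, 0.11 ± 0.15 and 0.16 ± 0.12), and Nectin2 and Clptm1 were called higher without that library (edgeR FDR-adjusted p = 0.0185 and 0.0338).

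Of 17 other genes of apolipoproteins and kindred HDL proteins, 12 passed the count filter, 1 rose (Apoc2), 1 fell and 10 did not pass, with a median of -0.0039. The fall was that of Saa4, a constitutive serum amyloid A, from 267 ± 22.4 to 193 ± 13.9 CPM (-0.47 ± 0.11, edgeR FDR-adjusted p = 0.0142), lost without 16 h replicate 1 or 3 (0.0806 and 0.0541). Clu, or apolipoprotein J, was at 1626 ± 219 and 1686 ± 116 CPM, and the HDL esterase Pon1 at 694 ± 5.8 and 666 ± 19.8 CPM. Apof was at 721 ± 92.8 and 588 ± 26.8 CPM (-0.30 ± 0.12, edgeR FDR-adjusted p = 0.109) and Apon at 360 ± 17.8 and 419 ± 25.9 CPM (0.22 ± 0.11, 0.178). Apol7a (-0.43 ± 0.17, edgeR FDR-adjusted p = 0.112), Apol9a (-0.72 ± 0.45, 0.325) and Apol9b (-0.81 ± 0.35, 0.165), of the intracellular apolipoprotein L family, did not pass, and Apol7a passed with no count filter and without 16 h replicate 1. The acute-phase genes Saa1 and Saa2 varied most among livers, Saa1 from 36.1 to 665 CPM and Saa2 from 20.2 to 413 CPM, highest in 16 h replicate 2 and next in 4 h replicate 3.

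Genes of VLDL assembly were called in both directions: 3 of 18 rose, 2 fell and 13 did not pass (median 0.07). Over all tested genes 9.18% rose and 9.51% fell, shares that also stand beside the counts of the lists below. Mttp, which loads lipid onto apolipoprotein B, rose with Apob from 298 ± 48.5 to 445 ± 17.4 CPM (0.57 ± 0.13, edgeR FDR-adjusted p = 0.00997), lost without 16 h replicate 2 (0.0511). Dgat1, an enzyme of triglyceride synthesis, rose by 0.54 ± 0.14 (edgeR FDR-adjusted p = 0.0189), and Mia3, a cargo receptor of the endoplasmic reticulum, by 0.40 ± 0.13 (0.0495). Soat2, which esterifies cholesterol, fell by 0.63 ± 0.10 (edgeR FDR-adjusted p = 0.00182), and Dgat2 fell by 0.39 ± 0.12 (0.0479). Dgat1, Mia3 and Dgat2 were named after their values were seen. The call of Dgat1 was lost without 16 h replicate 2 or 3 (edgeR FDR-adjusted p = 0.0858 and 0.0846), that of Mia3 when 4 h replicate 1 or a single 16 h library was left out (and with plain totals), and that of Dgat2 when a single library of the 6 was left out (and with RLE factors). P4hb, the most abundant member and partner of the Mttp protein, did not pass (-0.24 ± 0.10, edgeR FDR-adjusted p = 0.135).

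HDL and remodelling genes held 5 of 13 that fell, 8 that did not pass and none that rose (median -0.04), against 9.51% lower and 9.18% higher over all tested genes. Of those not passing, 3 had a positive change at an unadjusted edgeR p under 0.05, and DESeq2 called 2 higher. The 5 that fell were Angptl8 (-1.49 ± 0.36, edgeR FDR-adjusted p = 0.0337), the phospholipid transfer protein Pltp (-1.22 ± 0.16, 5.09e-04), the lipase Lpl (-1.18 ± 0.12, 1.03e-04), the hepatic lipase Lipc (-0.49 ± 0.11, 0.0115) and the lipase maturation factor Lmf1 (-0.41 ± 0.13, 0.0421). The last 4 were named after their values were seen. The change of Angptl8 was -0.93 without 4 h replicate 3, and its call was not kept when 16 h replicate 1, 2 or 3 was left out (edgeR FDR-adjusted p = 0.0875, 0.0892 and 0.112), Lipc without 16 h replicate 3 (0.074), and Lmf1 without any one library apart from 4 h replicate 2. Overlap covers 19.3% of the exon bases of Pltp.

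Of 8 tested receptors and their regulators, 2 rose, 2 fell and 4 did not pass (median 0.07). Sdc1, a heparan sulfate proteoglycan that takes up remnants, rose from 155 ± 14.1 to 268 ± 22.4 CPM (0.79 ± 0.12, edgeR FDR-adjusted p = 9.45e-04). Mylip, a ligase that marks lipoprotein receptors for degradation, rose by 0.63 ± 0.14 (edgeR FDR-adjusted p = 0.00824). The lipoprotein receptor gene Lsr fell (-0.64 ± 0.11, edgeR FDR-adjusted p = 0.003), with overlap in 44.7% of its exon bases. Lrp2, a large endocytic receptor, fell from 1.21 ± 0.36 to 0.353 ± 0.079 CPM (-1.75 ± 0.40, edgeR FDR-adjusted p = 0.0116), and its call was lost without 16 h replicate 1 (0.0546). Mylip and Lsr were named after their values were seen.

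The regulators of apolipoprotein transcription numbered 24, of which 5 rose, 4 fell and 15 did not pass (median 0.09). Hnf4a rose from 618 ± 25.1 to 1050 ± 168 CPM (0.77 ± 0.13, edgeR FDR-adjusted p = 0.00239), and its values of 590, 625 and 639 CPM after 4 h lay well below the 861, 1185 and 1104 CPM after 16 h. Ppara, the fatty acid receptor, rose by 0.82 ± 0.13 (0.00164) and its coactivator gene Ppargc1a by 1.02 ± 0.22 (edgeR FDR-adjusted p = 0.0096, and 0.0709 without 4 h replicate 3). The other rises were Foxo1 (0.50 ± 0.14, edgeR FDR-adjusted p = 0.0242) and Esrra (0.51 ± 0.13, 0.0228), both lost without 4 h replicate 1 and 16 h replicate 2 or 3. Srebf1 fell by 2.35 ± 0.16 (edgeR FDR-adjusted p = 8.97e-06), Mlxipl, the carbohydrate-response factor gene, with a log2 change of -1.34 ± 0.10 (1.88e-05), the clock repressor gene Nr1d1 -1.07 ± 0.14 (4.86e-04) and Cebpa -0.73 ± 0.13 (0.00341). Creb3l3, which encodes CREBH, a fasting activator of Apoa4, did not pass, at 346 ± 25.4 and 406 ± 26.5 CPM (0.23 ± 0.11, edgeR FDR-adjusted p = 0.166), except without 4 h replicate 3 (0.30, 0.0361). Ppara, Foxo1, Esrra, Mlxipl, Nr1d1, Cebpa and Creb3l3 were named after their values were seen.

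Of 8 genes listed as CREBH targets, 5 rose and 3 did not pass, but 3 of the risers are Apoa4, Apoa5 and Apoc2, already described. The others were the lipid droplet gene Cidec (1.5 ± 0.22, edgeR FDR-adjusted p = 0.00141) and Pck1 of glucose synthesis (1.04 ± 0.14, 6.59e-04). Fgf21, Hamp and G6pc did not pass (edgeR FDR-adjusted p = 0.074, 0.205 and 0.349). Of 14 fasting targets of PPARA, 9 rose and none fell by edgeR, DESeq2 or an unadjusted p under 0.05 (0 by each, median 1.09), led by Cyp4a14 (5.49 ± 0.31). Over all tested genes 9.18% rose and 9.51% fell in edgeR's test.

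Editing of the Apob transcript by the deaminase Apobec1 makes the short form B-48, which gene counts cannot tell from B-100. None of 5 editing genes passed with edgeR or DESeq2, and 2 (Apobec1 and Syncrip) had an unadjusted edgeR p under 0.05. Apobec1 was at 21.1, 19.1 and 18.9 CPM after 4 h and at 16.3, 15.7 and 12.8 CPM after 16 h (-0.40 ± 0.13, edgeR FDR-adjusted p = 0.0514, and 0.0338 without 4 h replicate 3). Its cofactor A1cf was at 69.4, 77.3 and 26.3 CPM against 115, 109 and 86.3 CPM (0.84 ± 0.40, edgeR FDR-adjusted p = 0.213). Without 4 h replicate 3, in which A1cf was lowest, the change was 0.50 and passed (0.0134). Rbm47, Syncrip and Khsrp changed by -0.21, 0.28 and -0.07 without passing.

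Among 20 other plasma protein genes of hepatocytes, 1 rose, 6 fell and 13 did not pass (median -0.22), against 9.18% higher and 9.51% lower over all tested genes. The riser was complement C3 (0.53 ± 0.14, edgeR FDR-adjusted p = 0.0203), lost without 4 h replicate 1 or 16 h replicate 1 or 2 (0.0502, 0.0672 and 0.0969). The largest fall was that of Ttr, the thyroxine and retinol carrier (-0.91 ± 0.13, edgeR FDR-adjusted p = 6.47e-04), and the most abundant, Alb, did not pass (-0.11 ± 0.13). Whether these genes differ from the apolipoproteins was not tested.

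**Figure D5:**
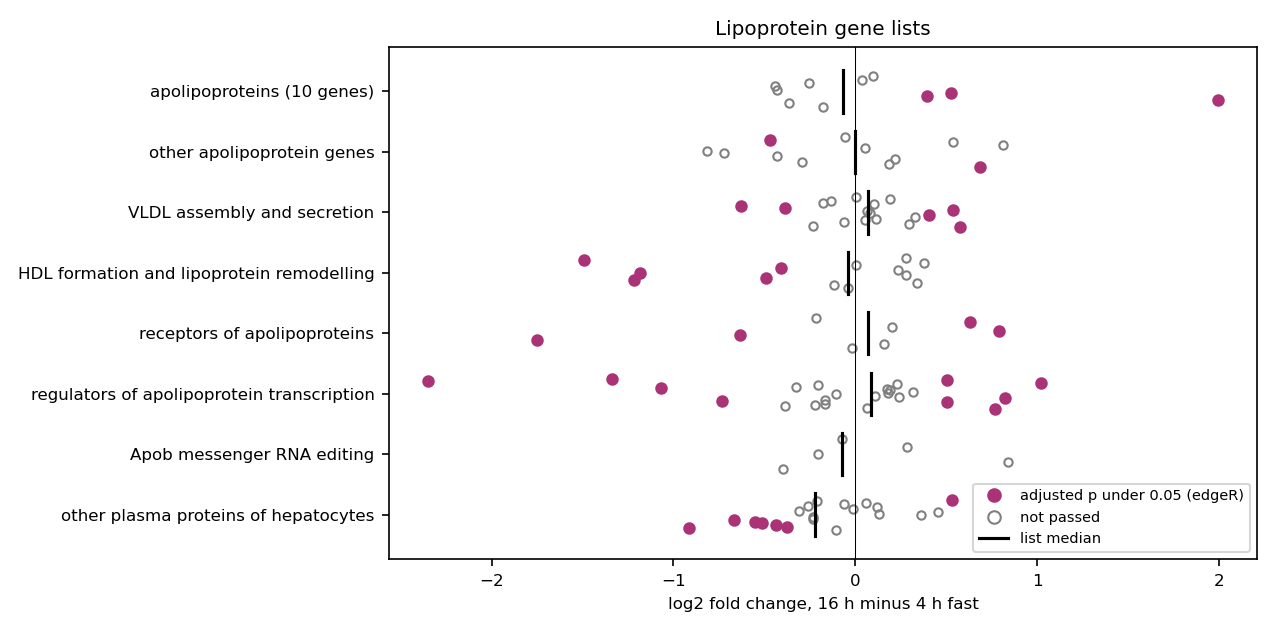
Log2 fold change, 16 h minus 4 h (horizontal axis), of each tested gene in 8 lists, with filled points for an edgeR adjusted p under 0.05, open points for genes that did not pass and a line at each list's median. The apolipoprotein row has 3 filled points, all to the right of 0, and the remodelling row has 5, all to the left.

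The genes whose levels followed Apoa4 most closely over the 6 livers were Pnkd, Urb2, Dgcr8, Acat1 and Pafah1b2, with Pearson correlations of log2 CPM of 0.996, 0.994, 0.993, 0.993 and 0.992. These values describe 6 points in 2 groups that share libraries and depth, and the genes were picked as the best of the tested genes that remained. Since they were picked for following Apoa4, it is no separate finding that each had 16 h replicate 2 as the lowest of the 16 h livers. An example is Acat1, a ketone body and isoleucine enzyme, at 651, 579 and 652 CPM. The changes of these genes were much smaller than that of Apoa4, from 0.23 ± 0.10 for Pafah1b2, which did not pass, to 0.58 ± 0.16 for Dgcr8 (edgeR FDR-adjusted p = 0.0263).

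Intestinal RNA was checked because enterocytes express Apoa4, Apob and Apoa1. Of 12 intestine markers, Sis, Alpi, Cdx1 and Mep1a had 0 counts in all libraries, and 4 passed the filter. The list summed to 210 to 242 CPM after 4 h and 238 to 278 CPM after 16 h, nearly all from Anpep (126 to 146 CPM), Fabp2 (54.3 to 80.9 CPM, named after its values were seen) and Lgals4 (also named after its values were seen), which liver may also express. None of the tested markers passed with edgeR or DESeq2, and 1 had an unadjusted edgeR p under 0.05. This was Slc5a1, higher after 16 h at 1.22 ± 0.34 against 0.62 ± 0.30 CPM and named after its values were seen. The median log2 fold change of the 4 tested markers was 0.24, against -0.03 over all genes tested. The part of intestinal RNA in the apolipoprotein changes was not tested.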

How the data were processed

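RNA was sequenced from 6 mouse livers, 1 library per mouse. Per the labels, RNA was isolated with TRIzol, then an RNeasy column and DNase. Per the submitters' processing notes, reads were trimmed with Trimmomatic, checked with FastQC, aligned with STAR to GRCm38 (mm10) and counted with HTSeq, and DESeq2 was used for their own comparison. For versions, annotation release and strand setting, the sources used here give nothing. The authors deposited raw counts per Ensembl gene, with 5 summary lines that were left out (reads outside genes 6.44% to 7.14%, ambiguous reads 5.78% to 6.59%).

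Symbols, positions and lengths came from GENCODE M21 on GRCm38, which held 55230 of 55471 identifiers. Promoter windows are RefSeq's (GRCm38.p6). Genes passing filterByExpr (13812, with 99.88% of counts) entered edgeR 4.0.16, run in R 4.3.3 (TMM, robust quasi-likelihood, fasting time as the only term), 2-sided, with Benjamini-Hochberg adjustment over all of them and a threshold of 0.05. The biological coefficient of variation was 14.3%. The code was tested on simulated data. Alternatives were DESeq2 1.42.0, RLE factors, plain totals, no count filter, a replicate block and leaving out each library. Libraries of a group differed beyond sampling noise (chi-square per degree of freedom 17.3 to 68.5), so each counted as 1 sample.

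The 10 genes were given by name. For other lists, the called genes with the largest rise and fall and the most abundant gene were named, plus all tested genes of the apolipoprotein, editing, CREBH and neighbour lists and the 5 closest patterns to Apoa4. Members and lists were chosen with earlier results of these data known. Some genes of the receptor list are not reported here and were left out of its counts.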

Additional observations from a re-analysis of the deposited data

How the results depend on the processing

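Over 11 alternative settings, the 10 apolipoprotein genes kept direction and side of the threshold in 92 of 110 cases. Direction turned in 3 cases, all of genes that did not pass: Apoa1 without 4 h replicate 3 (range without single libraries -0.25 to 0.041) and Apom without 4 h replicate 1 or 16 h replicate 2 (-0.10 to 0.20). Of the other named genes, Clu turned without 4 h replicate 1 or 16 h replicate 2 (-0.013 to 0.17), and Saa1 (-0.45 to 2.63) and Saa2 (-1.55 to 2.76) without 16 h replicate 2; the cause was not tested. The members called higher numbered 1 to 3 without single libraries, and those called lower 0 to 3, with 1 by DESeq2 and 2 with no count filter. Over all genes, 671 to 1594 were higher and 696 to 1393 lower without single libraries. The median change of the members ran from -0.16 to 0.11 and the difference in their summed share from -1.02 to -0.13 percentage points without single libraries, against -0.68 with all. With the replicate number as a block, 1352 genes were higher and 1396 lower and the same 3 members were called. Correlations of deviations of same-numbered libraries were 0.0876, 0.0933 and 0.0455, and 5 of 6 libraries correlated best with their own number. Whether same-numbered livers share a batch was not tested. Apobec1 (edgeR FDR-adjusted p = 0.0425), A1cf (0.0312) and Fgf21 (0.00681) passed with the block.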
